A study of Mus musculus with 12 samples.

Results

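The genes described here encode 32 lysosomal enzymes, cathepsins and lysosomal membrane proteins, of 19938 genes with a probe set of their own on the array that was hybridised with macrophage and liver RNA. They were chosen by name, as every probe set annotated to one of these genes and to no other; the rule uses no measured value, but the list of names was drawn up with earlier results of these data known. All 32 were represented on that array, by 1 probe set each. On the older array used for aorta, 31 of the 32 were represented by 56 probe sets, among 12394 genes, and Atp6v0d2 had none.

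Lysosomes are acidic organelles in which hydrolases break down proteins, glycans and lipids delivered by endocytosis, phagocytosis and autophagy. The enzymes work at the low pH that the vacuolar proton pump (V-ATPase) maintains, most are delivered through mannose 6-phosphate receptors, and the transcription factor TFEB promotes expression of many of their genes through short E-box elements in their promoters. Macrophages are rich in lysosomes, and in atherosclerosis the foam cells of the arterial wall hydrolyse lipoprotein cholesteryl esters there, while secreted cathepsins cut elastin and collagen of the vessel wall.

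The study compared mice lacking both Prkch, which encodes the kinase PKC eta, and Apoe with mice lacking Apoe alone, so the absence of Apoe, which raises plasma cholesterol, was common to both genotypes. All mice were on the C57BL/6J background and were kept free of specific pathogens. The macrophages had been drawn into the peritoneum by thioglycolate, came from females on regular diet and were not stimulated further, with 3 Prkch-/-Apoe-/- arrays and 3 Apoe-/- arrays. In each genotype, replicate 1 was aged 18 weeks, replicate 2 was aged 17 weeks and replicate 3 was aged 27 weeks. The liver samples were from re-fed males at 20 weeks of age, 12 of them on high fat diet, with 2 Prkch-/-Apoe-/- arrays and 2 Apoe-/- arrays. The aorta samples were from fed males of the same age and diet, with 1 array for each genotype and RNA of 4 mice combined on each. The labels call the arrays biological replicates. The labels name no Cre driver or tissue-restricted deletion.

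The brighter of the 2 Prkch probe sets read 9.36, 8.79 and 8.87 log2 units in Prkch-/-Apoe-/- macrophages, against 9.94, 9.86 and 9.31 in Apoe-/- macrophages, and 5.93 and 5.65 in Prkch-/-Apoe-/- livers, against 6.57 and 6.87 in Apoe-/- livers; whether it lies in the deleted stretch was not tested. Knockout macrophage replicate 1 lay inside the range of the controls, and the livers did not overlap. Exact ties between deposited values divided the macrophage arrays into 2 sets: knockout replicate 1 with control replicates 1 and 2, and knockout replicates 2 and 3 with control replicate 3. In the second set Ctss and Man2b1 had the same value on all 3 arrays, and Neu1, Ppt1, Lamp2 and Tfeb the same value on knockout replicate 3 and control replicate 3. The mean level of the 11 macrophage markers lay between 11.99 and 12.30 log2 units on the control macrophage arrays and between 8.70 and 9.13 on the control liver arrays, and that of the 7 hepatocyte markers measured lay between 5.65 and 5.79 in control macrophages and between 13.44 and 13.51 in control livers, matching the labels. Knockout macrophage replicate 2 stood apart from the other 5 macrophage arrays: its B cell markers were 1.59 and its fibroblast markers -1.69 in median relative to the control mean, on the log2 scale. Values without it follow beside the macrophage results.

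The promoters are shown because TFEB is itself among these genes and recognises a palindromic E-box, whose core is CACGTG and whose longer form is TCACGTGA, in the consensus with a G before it and a C after it. RefSeq windows of the GRCm38.p6 build, which run from 250 bases before to 50 bases after each transcription start, were found for 27 of the 32 genes. That longest form, with the G and the C, occurred in 0 of these 27 genes and in 0.370% of all 27025 genes with a window. TCACGTGA, an 8-letter form that contains CACGTG, occurred in 4 of 27 (14.8%), namely Ctsa, Ctsd, Gla and Mcoln1, against 1.12% of all genes. CACGTG alone or within a longer form occurred in 9 of 27 (33.3%), adding Ctsl, Gaa, Glb1, Lamp1 and Lgmn, against 8.09% of all genes. Each form reads the same on both strands, so a match on 1 strand is a match on the other. The following stretches, 5′ to 3′ on the strand of the gene, hold the 8-letter form in 3 genes, the cluster of 4 core motifs before the start of Lamp1, and the core motif of Lgmn, with the matched letters in capitals.
Ctsd, chr7:142387879-142387966 (- strand): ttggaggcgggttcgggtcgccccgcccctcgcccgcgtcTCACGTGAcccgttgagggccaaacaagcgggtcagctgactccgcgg
Gla, chrX:134601153-134601255 (- strand): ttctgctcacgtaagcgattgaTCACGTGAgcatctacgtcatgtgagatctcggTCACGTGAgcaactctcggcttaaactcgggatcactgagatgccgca
Mcoln1, chr8:3500408-3500518 (+ strand): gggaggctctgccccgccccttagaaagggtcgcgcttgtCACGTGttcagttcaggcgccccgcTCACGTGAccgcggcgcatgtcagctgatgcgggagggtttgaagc
Lamp1, chr8:13159060-13159160 (+ strand): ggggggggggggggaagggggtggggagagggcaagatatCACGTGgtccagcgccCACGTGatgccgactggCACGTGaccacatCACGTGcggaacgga
Lgmn, chr12:102439096-102439181 (- strand): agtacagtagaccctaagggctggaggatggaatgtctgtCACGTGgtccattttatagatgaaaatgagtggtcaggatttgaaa
The motif of the Ctsd stretch begins 99 bases before the start of transcription, those of Gla 228 and 195 bases before it, the 8-letter motif of Mcoln1 46 bases before it with a core motif at 71, and those of Lamp1 61, 45, 28 and 15 bases before it. Such a match describes the sequence, and binding was not measured.

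The levels in the control tissues show how these genes are distributed before Prkch is considered. In Apoe-/- macrophages, compared with Apoe-/- liver, 28 of the 32 genes were higher and 0 were lower at an adjusted p under 0.05 (limma, Benjamini-Hochberg), where 34.2% of the 15548 genes tested were higher and 29.5% lower. The comparison used values minus each array's median, and the median difference of the 32 genes was 1.40 on the log2 scale, against 0.02 over all genes tested. Sex, diet, age and feeding state differ between the macrophage and liver samples as well as the tissue, so these cannot be told apart. In liver, a bulk tissue, fewer cells of a type and less RNA per cell cannot be told apart either.

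Among the cysteine cathepsins and legumain, 7 of 8 were higher in control macrophages. Ctsk, the collagen-cutting protease best known from osteoclasts, had the widest gap, with 12.07, 12.09 and 12.22 log2 units as deposited on the 3 macrophage arrays and 4.68 and 4.97 on the 2 liver arrays, a difference of 6.52 ± 0.55 on the median-centred log2 scale (SE, limma adjusted p = 2.69e-06). The Ctsk mean in control livers, 4.83 log2 units, lies below 4.87, the level under which genes were left out of the liver comparison, so the liver level is not well determined and no fold is given. Ctss, which degrades elastin and trims the invariant chain of MHC class II, was 6.17-fold higher in macrophages, Ctsl 3.06-fold and Ctsb 2.63-fold, and Lgmn, the asparaginyl endopeptidase that activates other cathepsins, 3.24-fold. Ctsz, a carboxypeptidase, was 1.94-fold higher and Ctsh, an aminopeptidase, 1.43-fold. Ctsc, which activates serine proteases of granules, did not pass, at 0.27 ± 0.21 (log2, SE; limma adjusted p = 0.282), and passed when only the 5 control arrays were fitted (limma adjusted p = 0.0369).

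All 4 aspartic and serine proteases were higher in control macrophages. Ctsa, the carboxypeptidase that stabilises neuraminidase and beta-galactosidase, was 5.9-fold higher, Tpp1, a tripeptidyl peptidase, 3.68-fold, and Ctsd, the main aspartic protease of lysosomes, 2.51-fold. Ctse, an endosomal aspartic protease, differed 1.75-fold but was dim in both tissues, at 7.36, 7.29 and 6.99 log2 units in macrophages and 5.65 and 5.59 in livers. Of the 7 glycosidases, 6 were higher in macrophages, with the widest gap in Gla, the alpha-galactosidase that clears globotriaosylceramide: it read 12.02, 11.97 and 12.18 log2 units in macrophages and 7.63 and 7.78 in livers, an 11.9-fold difference (3.57 ± 0.25 SE). Gusb, the beta-glucuronidase, followed at 10.4-fold, Hexa, the alpha subunit of beta-hexosaminidase, at 6.67-fold, Glb1, the beta-galactosidase, at 6.56-fold, Man2b1, the alpha-mannosidase, at 2.84-fold and Neu1, the sialidase, at 1.64-fold. Gaa, which degrades glycogen, did not pass at 0.41 ± 0.18 (log2, SE; limma adjusted p = 0.0689), and also passed with the control arrays alone (limma adjusted p = 0.00669).

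The 5 lipid-handling genes were all higher in control macrophages. Npc2, the soluble carrier that hands cholesterol to NPC1, was 7.86-fold higher, and Npc1, the membrane transporter that exports it, 2.45-fold. Ppt1, which removes palmitate from proteins, was 2.88-fold higher, Lipa, the acid lipase that hydrolyses cholesteryl esters, 2.16-fold and Psap, the precursor of the saposin activators, 1.71-fold. Of the 6 membrane and acidification genes, 4 were higher. Atp6v0d2, a subunit of the V-ATPase membrane sector that is enriched in macrophages and osteoclasts, read 12.93, 12.96 and 12.99 log2 units in macrophages and 7.30 and 7.09 in livers, a 31.6-fold difference (4.98 ± 0.44 SE). Atp6ap1, an accessory subunit of that pump, was 3.98-fold higher, Mcoln1, the calcium channel of the lysosomal membrane, 2.2-fold and Lamp1, an abundant membrane glycoprotein, 2-fold. Lamp2, its paralogue, differed by -0.20 ± 0.10 and Scarb2, the receptor that carries glucocerebrosidase to lysosomes, by -0.02 ± 0.15 (log2, SE; limma adjusted p = 0.121 and 0.921). The regulators Tfeb and Grn, which encodes progranulin, were 2.39-fold and 2.67-fold higher in macrophages.

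**Figure D1:**
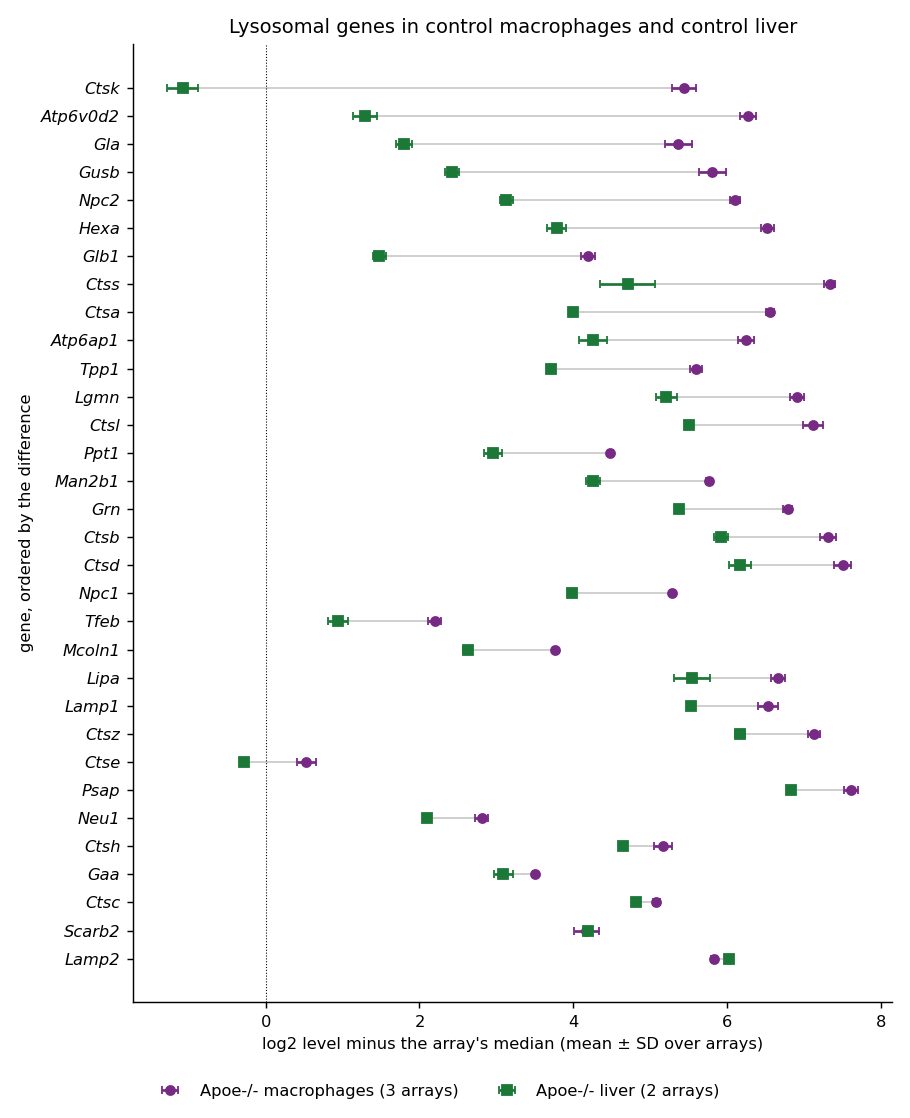
Mean level of each of the 32 genes in control macrophages (circles, 3 arrays) and control liver (squares, 2 arrays), as log2 minus the array's median on the horizontal axis, with SD bars; genes run down the page by the size of the difference. Ctsk has the widest gap, 6.52, against liver values at the dim end of the array, and Lamp2 and Scarb2 are the only 2 of the 32 whose macrophage mean is not above the liver mean on this scale; both are above it on the values as deposited.

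The direction of this comparison depends on centring for the genes with small differences. On the values as deposited, the median over all genes tested moves to 0.80 and 87.0% of the calls are higher in macrophages, against 53.6% with median-centred values; Lamp2 then reads 0.58 and Scarb2 0.76 higher in macrophages, and all 32 genes are called higher. The genes of the wider lysosomal pathway were also mostly higher in control macrophages with median-centred values: 17 of the 27 other acid hydrolases tested and 3 lower, 13 of 13 V-ATPase subunits, 16 of 18 membrane and transport genes and 1 lower, 8 of 8 genes of enzyme sorting and the MiT/TFE factors, and 4 of 4 cathepsin inhibitors.

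In liver, the knockout comparison asks whether loss of Prkch alters these genes in high-fat-fed, re-fed males. None of the 32 genes passed an adjusted p under 0.05, and only 1 of all 15942 genes did (0.00627%; limma, Benjamini-Hochberg). At an unadjusted p under 0.05, 6 of 32 genes (18.8%) were lower in Prkch-/-Apoe-/- livers, against 2.75% of all genes, and 0 were higher, against 1.54%. These were Atp6v0d2, Ctsd, Gusb, Lgmn, Ctsb and Hexa. In 28 of 32 genes the difference was below 0 (27 after quantile normalization, where Neu1 turns), against 57.1% of all genes, with a median of -0.14 against -0.02 over all genes (log2). The knockout arrays lay wholly below the controls in 16 of 32 genes, against 18% of all genes, and wholly above in 0, against 11.8%. A difference of -0.3 or lower was found in 10 of 32 genes, against 4.8% of all genes. Since Ctsb and Ctsd were already known to be lower in these livers when the genes were chosen, the counts are a description and not independent evidence of a direction.

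Among the cysteine proteases, Ctsb read 11.37 and 11.43 log2 units in the 2 Prkch-/-Apoe-/- livers, against 11.89 and 11.76 in the 2 Apoe-/- livers, a difference of -0.43 ± 0.13 (SE). Lgmn read 10.61 and 10.75 in Prkch-/-Apoe-/- livers, against 11.02 and 11.21 in Apoe-/- livers (-0.44 ± 0.14). Both genes had their 2 knockout values below their 2 control values, at 74.3% and 73.9% of the control level. Ctss, at 10.09 and 10.32 in Prkch-/-Apoe-/- livers against 10.36 and 10.87 in Apoe-/- livers (-0.41 ± 0.19), had knockout replicate 2 close to control replicate 1. Ctsz lay -0.36 ± 0.17 from the controls without overlap. The remaining 4 did not follow: Ctsk (5.26 and 4.71 in knockouts against 4.68 and 4.97 in controls), Ctsc (11.07 and 10.67 against 10.71 and 10.72) and Ctsl (11.40 and 11.54 against 11.43 and 11.39) had means above the control mean with overlapping arrays or with knockout replicates on both sides of the controls, and Ctsh differed by -0.01.

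Ctsd gave 11.32 and 11.74 log2 units in Prkch-/-Apoe-/- livers and 11.97 and 12.18 in Apoe-/- livers, so that the mean was 68.4% of the control level (-0.55 ± 0.17 SE). The 2 genotypes did not overlap, and the knockout replicates differed from each other by more than the controls did. The other 3 genes of that group were lower in mean, by -0.16 in Tpp1, -0.13 in Ctsa and -0.09 in Ctse, on the log2 scale. Among the glycosidases, Gusb read 7.77 and 8.01 in Prkch-/-Apoe-/- livers, against 8.26 and 8.40 in Apoe-/- livers (-0.44 ± 0.14), and Hexa read 9.17 and 9.43 in Prkch-/-Apoe-/- livers, against 9.77 and 9.61 in Apoe-/- livers (-0.39 ± 0.15). Neither overlapped. Gla read 7.08 and 7.62 in Prkch-/-Apoe-/- livers, against 7.63 and 7.78 in Apoe-/- livers, where knockout replicate 2 stood just below the lower control. The other 4 glycosidases differed by -0.19 (Man2b1) to -0.01 (Neu1), and all 7 had a mean below the controls, Neu1 turning after quantile normalization.

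The lipid-handling genes differed by -0.31 (Psap), -0.23 (Npc2), -0.21 (Lipa), -0.14 (Npc1) and -0.14 (Ppt1), on the log2 scale, and 3 of the 5 did not overlap between genotypes. The acid lipase of cholesteryl esters, Lipa, read 11.20 and 11.28 in Prkch-/-Apoe-/- livers, against 11.61 and 11.29 in Apoe-/- livers. Its knockout values lie at and below the lower control. Of the membrane and acidification genes, Atp6v0d2 had the largest difference of all 32 genes, with 6.26 and 6.69 log2 units in Prkch-/-Apoe-/- livers against 7.30 and 7.09 in Apoe-/- livers. Its mean was 60.6% of the control level, without overlap (-0.72 ± 0.17 SE, limma adjusted p = 0.812). Lamp1 (-0.04), Lamp2 (0.04), Scarb2 (-0.06), Mcoln1 (-0.09) and Atp6ap1 (-0.11) lay within 0.12 of 0 on the log2 scale. So did the regulators, at -0.03 for Tfeb and -0.08 for Grn.

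**Figure D2:**
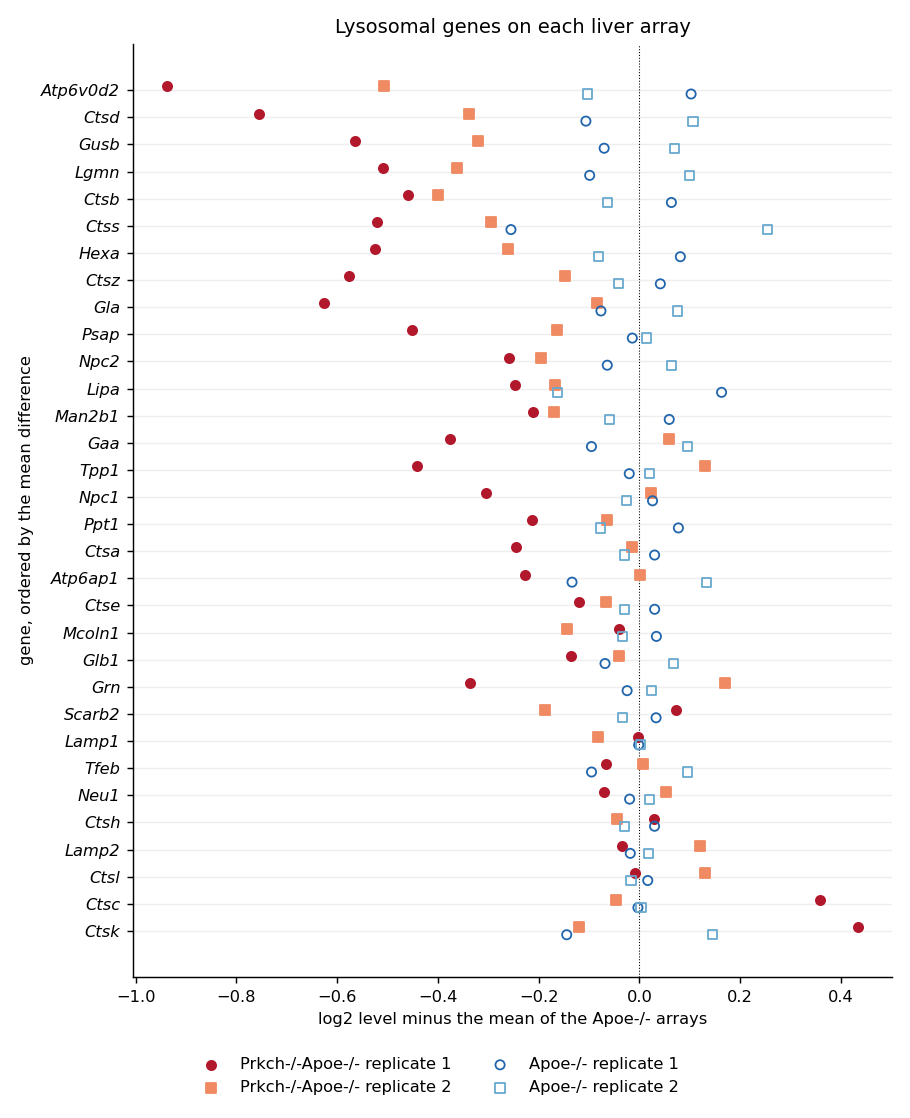
Level of each gene on each liver array, as log2 minus the mean of the 2 Apoe-/- arrays; filled symbols are Prkch-/-Apoe-/- replicates, open symbols Apoe-/- replicates, and genes run down the page by the mean difference. Knockout replicate 1 is the leftmost symbol for 24 of the 32 genes.

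Knockout replicate 1 carried more of the difference than knockout replicate 2. It was the lowest of the 4 liver arrays for 24 of 32 genes, against 35.3% of all genes, and the median over the 32 genes was -0.25 on knockout replicate 1 and -0.08 on knockout replicate 2, relative to the control mean. Without knockout replicate 1, 23 of 32 genes were below 0, against 53.3% of all genes, and 2 were lower at an unadjusted p under 0.05, against 2.68%. Without knockout replicate 2 that count was 11, against 6.44%. Macrophage markers moved in the same livers: 10 of the 11 macrophage markers were lower in Prkch-/-Apoe-/- livers (median -0.32), where 57.1% of all genes were below 0. At an unadjusted p under 0.05, 5 of the 11 were lower, against 2.75% of all genes. Means over the 11 were 8.49 and 8.64 log2 units in Prkch-/-Apoe-/- livers, against 8.70 and 9.13 in Apoe-/- livers. Cd68 read 8.71 and 9.12 in Prkch-/-Apoe-/- livers, against 9.58 and 9.94 in Apoe-/- livers, and Lyz2 read 10.40 and 10.80 in Prkch-/-Apoe-/- livers, against 11.00 and 11.50 in Apoe-/- livers. The 6 Kupffer cell markers, of which Cdh5 is also in the endothelial marker list, were all below 0 in mean (median -0.51). Knockout replicate 2 was the lowest array for 4 of them and knockout replicate 1 for 2. Their median was -0.79 on knockout replicate 2 and 0.07 on knockout replicate 1, the reverse of the order of the median over the 32 genes. The macrophage markers followed that order, with a median of -0.47 on knockout replicate 1 and -0.30 on knockout replicate 2, and so did the fibroblast markers, with -0.43 on knockout replicate 1 and -0.11 on knockout replicate 2. Within the 32 genes, the membrane and acidification group ran against it, at -0.04 on knockout replicate 1 and -0.11 on knockout replicate 2. Fibroblast markers had a median of -0.27 and the 7 hepatocyte markers a median of 0.06. The part of these cell types in the lysosomal differences was not tested.

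Of the other genes of the pathway in liver, 0 passed an adjusted p under 0.05 (limma, Benjamini-Hochberg). Over all genes, 57.1% were below 0 and 2.75% were lower at an unadjusted p under 0.05. Of 27 other acid hydrolases tested, 24 were below 0 (median -0.10; 22 after quantile normalization) and 2 lower at an unadjusted p under 0.05: Arsa, the arylsulfatase that degrades sulfatide (-0.37), and Dnase2a, the acid DNase (-0.31). Of 17 membrane and transport genes, 14 were below 0 (median -0.09) and 3 lower at that threshold. Cd63, a tetraspanin of late endosomes, read 5.38 and 5.88 in Prkch-/-Apoe-/- livers, against 6.75 and 6.58 in Apoe-/- livers (-1.03 ± 0.18 SE, limma adjusted p = 0.573). The other 2 were Cd68 (-0.84), which is also in the macrophage marker list, and Laptm5 (-0.63), a lysosomal protein of blood cells. Of 13 V-ATPase subunits 10 were below 0 and of 8 sorting genes and MiT/TFE factors 8, with 0 of either list lower at that threshold, and of 4 cathepsin inhibitors 4 were below 0, of which 1 was lower at it, Serpinb6a (-0.46). The median of all genes was -0.02.

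In elicited macrophages, no gene of the 32 passed an adjusted p under 0.05 or an unadjusted p under 0.05 (limma, Benjamini-Hochberg). Over all 15039 genes, 0 passed the first threshold (0%) and 105 the second, 0.12% higher and 0.578% lower. In 29 of 32 genes the mean was below that of the controls (28 after quantile normalization, where Psap turns), against 63.5% of all genes, with a median of -0.13 against -0.04 over all genes (log2). That count rests on knockout replicate 2, which was the lowest of the 6 arrays for 24 of 32 genes, against 21.8% of all genes. Relative to the control mean, the median of the 32 genes was -0.34 on knockout replicate 2, -0.01 on knockout replicate 1 and 0.01 on knockout replicate 3. Without knockout replicate 2, 16 of 32 genes were below 0, against 53% of all genes, and the median was -0.0001. With the sets of tied arrays as a block, 28 of 32 genes were below 0, and the median was -0.07 against 0.01 over all genes.

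The genes furthest from the controls were Ctsk and Atp6v0d2, which also lay furthest below the controls on that array, and were the only 2 of 32 with a difference of -0.3 or lower, against 2.81% of all genes. Ctsk read 11.79, 10.13 and 12.62 log2 units in Prkch-/-Apoe-/- macrophages, against 12.07, 12.09 and 12.22 in Apoe-/- macrophages (-0.62 ± 0.57 SE, limma adjusted p = 1.00). Without knockout replicate 2 the difference was 0.07, and knockout replicates 1 and 3 lay on opposite sides of the controls. Atp6v0d2 read 13.01, 11.21 and 13.03 in Prkch-/-Apoe-/- macrophages, against 12.93, 12.96 and 12.99 in Apoe-/- macrophages (-0.54 ± 0.47), and differed by 0.06 without knockout replicate 2. The other 5 arrays of Atp6v0d2 lie between 12.93 and 13.03. Within the 2 sets of arrays that share exact ties, the Ctsk difference was -0.30 and -0.85 and the Atp6v0d2 difference 0.07 and -0.86, the second set being the one with knockout replicate 2.

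Of the glycosidases, Glb1 read 10.78, 10.13 and 10.94 in Prkch-/-Apoe-/- macrophages, against 10.93, 10.82 and 10.88 in Apoe-/- macrophages (-0.26 ± 0.21), and Gusb read 12.38, 11.77 and 12.61 in Prkch-/-Apoe-/- macrophages, against 12.40, 12.48 and 12.61 in Apoe-/- macrophages (-0.25 ± 0.21). In both, knockout replicate 2 alone lay far below the controls, and without it the differences were -0.02 for Glb1 and -0.003 for Gusb. Hexa read 13.12, 12.69 and 13.12 in Prkch-/-Apoe-/- macrophages, against 13.19, 13.23 and 13.22 in Apoe-/- macrophages (-0.24 ± 0.13), with all 3 knockout arrays below all 3 controls; without knockout replicate 2 the difference was -0.09. Lgmn was the other gene without overlap, at 13.50, 13.38 and 13.46 in Prkch-/-Apoe-/- macrophages against 13.56, 13.62 and 13.60 in Apoe-/- macrophages (-0.15 ± 0.08), and -0.12 without knockout replicate 2. That makes 2 of 32 genes whose knockout arrays all lay below the controls, against 1.6% of all genes, while 0 had all knockout arrays above them, against 0.652%. Npc2 read 12.67, 12.26 and 12.76 in Prkch-/-Apoe-/- macrophages, against 12.87, 12.75 and 12.75 in Apoe-/- macrophages (-0.23 ± 0.14). Its knockout replicates 1 and 2 lie below the controls and replicate 3 among them, and without replicate 2 the difference was -0.07.

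Ctsc went the other way on the same array, with 11.71, 12.40 and 11.74 in Prkch-/-Apoe-/- macrophages against 11.86, 11.79 and 11.64 in Apoe-/- macrophages (0.18 ± 0.19; -0.04 without knockout replicate 2). Scarb2, at 10.74, 11.09 and 10.76 in Prkch-/-Apoe-/- macrophages against 10.76, 10.87 and 10.94 in Apoe-/- macrophages, was also highest there and differed by -0.11 without it. Lamp2 differed by 0.02 with overlapping arrays. The remaining genes differed little: Ctsd by -0.01, Ctsb by -0.02, Psap by -0.0009, Grn by -0.01 and Tfeb by -0.16, and the differences of all 32 genes lay between -0.62 (Ctsk) and 0.18 (Ctsc). On knockout replicate 2, the median relative to the control mean was 0.52 for macrophage markers, 1.59 for B cell markers and -1.69 for fibroblast markers on the log2 scale; the part of these cells in its low lysosomal values was not tested.

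**Figure D3:**
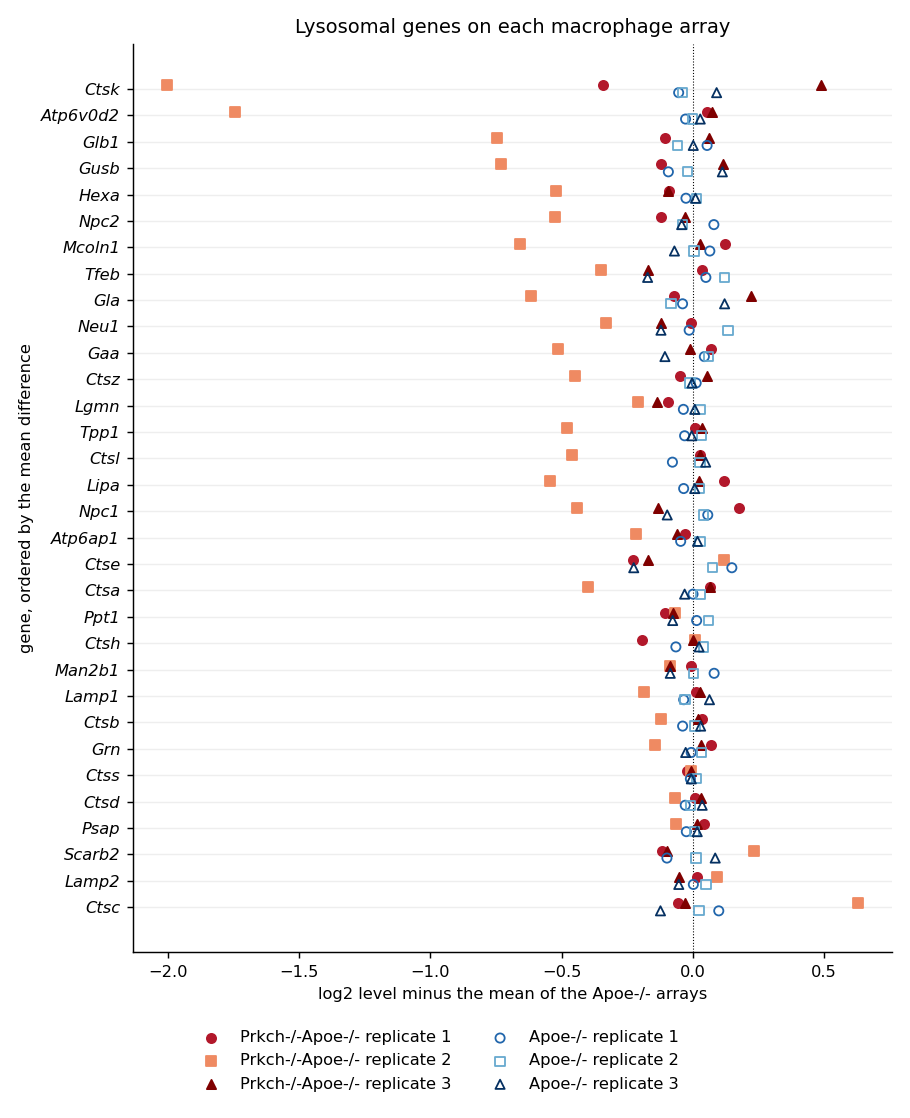
Level of each gene on each macrophage array, as log2 minus the mean of the 3 Apoe-/- arrays, with filled symbols for Prkch-/-Apoe-/- replicates and open symbols for Apoe-/- replicates. The squares of knockout replicate 2 lie left of every other array for 24 of 32 genes, with Ctsk and Atp6v0d2 furthest from 0, while Ctsc lies to the right.

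The V-ATPase subunits outside the 32 genes gave the same picture on that array. All 13 tested were below 0 in Prkch-/-Apoe-/- macrophages (median -0.15) and knockout replicate 2 was the lowest of 6 arrays in 13 of 13. Without that replicate 6 of 13 were below 0. Over all genes, 63.5% were below 0, or 53% without knockout replicate 2, and 21.8% were lowest on it. At an unadjusted p under 0.05, Atp6v1d (-0.47) and Atp6v0e (-0.27), subunits of the cytosolic and membrane sectors of the pump, were lower, each with 3 knockout values below the controls. Without knockout replicate 2 the differences were -0.28 for Atp6v1d and -0.17 for Atp6v0e. Over all genes, 0.578% were lower at that threshold, and 1.6% had all knockout arrays below the controls. The cathepsin inhibitors Serpinb6a (-0.32), a cytosolic serpin, and Cst7 (-0.39), a cystatin of endosomes, were lower at that threshold among 4 tested, and differed by -0.27 and -0.40 without knockout replicate 2. Cst7 had the same value, 6.06, on knockout replicates 2 and 3 and control replicate 3. Serpinb6a read 12.17, 12.14 and 12.39 in Prkch-/-Apoe-/- macrophages, against 12.46, 12.59 and 12.62 in Apoe-/- macrophages. Other acid hydrolases were below 0 in 23 of 27 genes (median -0.13; 19 of 27 without knockout replicate 2, 22 of 27 after quantile normalization), membrane and transport genes in 17 of 18 (16 after quantile normalization, 11 without knockout replicate 2) and sorting genes with MiT/TFE factors in 7 of 8 (5 without knockout replicate 2), and none of these 3 lists had a gene at an unadjusted p under 0.05; 0 genes of any list passed an adjusted p under 0.05 (limma, Benjamini-Hochberg).

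**Figure D4:**
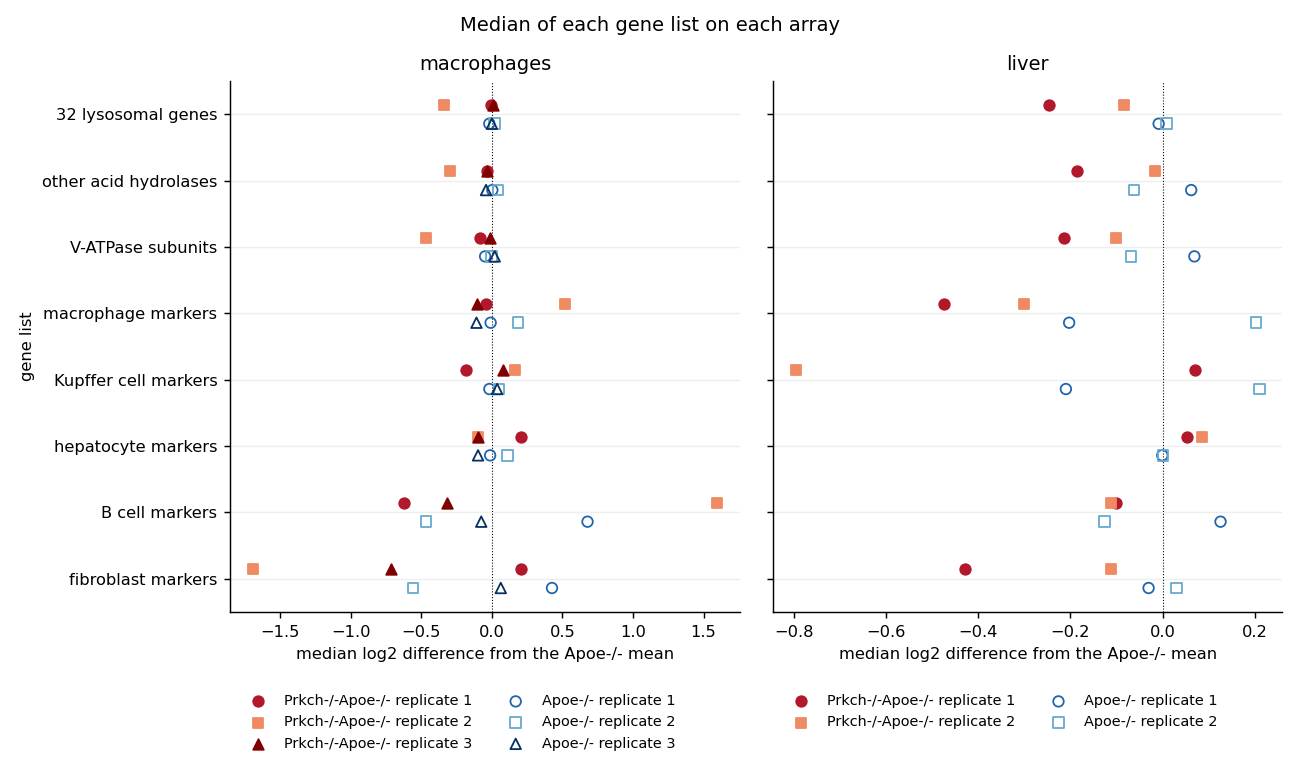
Median of each gene list on each array, relative to the mean of the Apoe-/- arrays (log2), for macrophages on the left and liver on the right; filled symbols are Prkch-/-Apoe-/- and open symbols Apoe-/- replicates. In macrophages the lysosomal lists lie low on knockout replicate 2, where B cell markers lie high, and in liver the 3 lysosomal lists plotted lie lowest on knockout replicate 1, while Kupffer cell markers lie lowest on knockout replicate 2.

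The knockout difference was also set between macrophages and liver, as the macrophage difference minus the liver difference over all 10 arrays. None of the 32 genes, and 0 of all 15548 genes (0%), passed an adjusted p under 0.05 (limma, Benjamini-Hochberg). At an unadjusted p under 0.05 there were 2 of 32 (6.25%), both higher, against 1.05% of all genes higher and 0.958% lower: Ctsb, with a difference of -0.02 in macrophages and -0.43 in liver (0.41 ± 0.14 SE), and Ctsd, with -0.01 in macrophages and -0.55 in liver (0.54 ± 0.19). The lower Ctsb and Ctsd of the knockout livers are therefore not shown to differ from the macrophages after adjustment. Both genes were already known to be lower in these livers when the genes were chosen. The share of 6.25% is thus a description and not independent evidence. For Atp6v0d2 the 2 differences were -0.54 and -0.72 (0.18 ± 0.63), and for Lgmn -0.15 and -0.44 (0.29 ± 0.15).

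In the aorta, where plaque macrophages form part of the vessel wall, a pool of Prkch-/-Apoe-/- mice was compared with a pool of Apoe-/- mice. There is no replicate, so no difference has an error or a test. Signals are linear intensity on an array of another design and are not set against the log2 levels above; differences are of log2(signal + 16), which understates those of dim genes. Of the 31 genes measured, 30 had at least the median signal (32.6) on the brighter array, and Ctse, with 13.6 in the Prkch-/-Apoe-/- pool and 14.96 in the Apoe-/- pool, did not. None of the 30 differed 2-fold or more, against 0.873% of 7098 genes higher and 0.394% lower. In the Prkch-/-Apoe-/- pool 22 of 30 were higher and 8 lower, where 51.5% of all genes were lower, and the median was 0.11 against -0.01 over all genes. After quantile normalization of the 2 arrays the median was 0.05 and 10 of 30 were lower, with Ctsl, Neu1 and Psap turning to lower and Tpp1 to higher on its brightest probe set. The other Tpp1 probe set read 151 in the Prkch-/-Apoe-/- pool and 220.0 in the Apoe-/- pool (-0.50). A size of 0.3 or more was reached by 4 of 30 (13.3%), against 24.9% of all genes.

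Lgmn had the largest difference, with a signal of 222 in the Prkch-/-Apoe-/- pool against 147 in the Apoe-/- pool (0.55). Ctsc followed with 413 in the Prkch-/-Apoe-/- pool against 299 in the Apoe-/- pool (0.45). Ctsk (98.4 in the Prkch-/-Apoe-/- pool against 123 in the Apoe-/- pool, -0.29) and Ctsz (-0.27, with all 3 of its probe sets lower) were the only cysteine proteases that were lower, joined by Ctsl after quantile normalization. Ctsb reads 0.17 on its brightest probe set, at 2079 in the Prkch-/-Apoe-/- pool against 1843 in the Apoe-/- pool, and between -0.21 and -0.06 on its other 3, so its direction is unsettled. The 5 lipid-handling genes were all higher on their brightest probe sets, from 0.03 in Lipa to 0.23 in Ppt1, with Psap at -0.03 after quantile normalization; a dimmer probe set of Lipa gave -0.38.

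On the brightest probe sets Mcoln1 had the largest difference below 0, at 69 in the Prkch-/-Apoe-/- pool against 97.8 in the Apoe-/- pool (-0.42), and its other probe set gave -0.27. Lamp2 was 0.23, with 1077 in the Prkch-/-Apoe-/- pool against 917 in the Apoe-/- pool, and Atp6ap1 was 0.19. Tfeb read 43.9 in the Prkch-/-Apoe-/- pool and 31.3 in the Apoe-/- pool (0.34); it reached the signal limit in the knockout pool alone, so a gene so chosen had to be higher there. Among the glycosidases Gusb was -0.22, with 283 in the Prkch-/-Apoe-/- pool against 334 in the Apoe-/- pool, but 0.18 on a dim second probe set. Gla was -0.12 and Gaa -0.10, where the other Gaa probe set gave 0.21. Probe sets of Neu1 and Ctse also disagreed in direction by over 0.3.

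**Figure D5:**
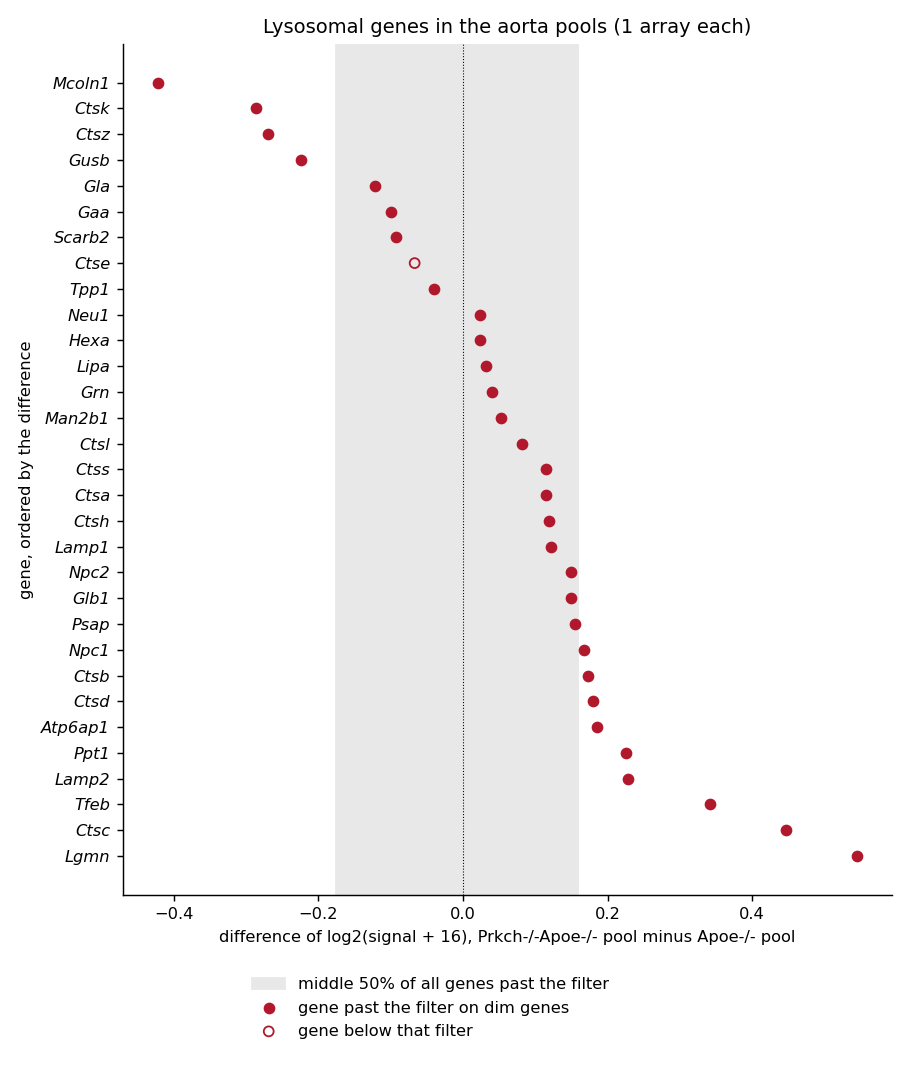
Difference of log2(signal + 16) between the Prkch-/-Apoe-/- pool and the Apoe-/- pool of aorta RNA for each gene on its brightest probe set; the grey band spans the middle 50% of all genes past the signal limit, from -0.18 to 0.16, and the open circle is the gene below that limit. Lgmn and Ctsc lie furthest right and Mcoln1 furthest left, with no replicate behind any point.

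Markers of other cells differed between the 2 aorta pools. Summed signals of 5 B cell markers were 852 in the Prkch-/-Apoe-/- pool and 317 in the Apoe-/- pool, and those of 5 T cell markers were 157 in the Prkch-/-Apoe-/- pool and 28.6 in the Apoe-/- pool. Only 3 of these B cell markers passed the signal limit, 2 higher and 1 lower in the Prkch-/-Apoe-/- pool. Ms4a1 read 453 there against 49.9 in the Apoe-/- pool, and Ebf1 197 against 216. Of the T cell markers 2 passed the limit and were higher, with Cd3d at 87.5 in the Prkch-/-Apoe-/- pool against 6.08. Skeletal muscle markers, 6 in number, summed to 4613 in the Prkch-/-Apoe-/- pool and 7503 in the Apoe-/- pool, and the 11 macrophage markers to 5939 in the Prkch-/-Apoe-/- pool and 5641 in the Apoe-/- pool. Of the 10 macrophage markers past the signal limit, 7 were higher and 3 lower (median 0.10). Lyz2, the brightest, read 2511 in the Prkch-/-Apoe-/- pool against 2154 in the Apoe-/- pool (0.22, or 0.03 after quantile normalization). Cd68 was lower, at 290 against 370 (-0.34). Fibroblast markers were higher in 6 of 6 genes (median 0.30), summing to 6205 in the Prkch-/-Apoe-/- pool and 4860.5 in the Apoe-/- pool. Smooth muscle markers were higher in 5 of 6 (median 0.22), summing to 4909 in the Prkch-/-Apoe-/- pool and 4058 in the Apoe-/- pool, and endothelial markers were lower in 5 of 5 genes past the signal limit (median -0.17). The part of these cells in the lysosomal differences was not tested.

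Set side by side over the tissues, Lgmn differed by -0.44 in liver and -0.15 in macrophages, without overlap in either, and by 0.55 between the aorta pools. Hexa was also without overlap in liver (-0.39) and macrophages (-0.24), and differed by 0.02 between the aorta pools. Over all genes, the knockout arrays lay wholly below the controls in 18% in liver and 1.6% in macrophages. Of the 30 genes past the aorta signal limit, 2 were above 0 in each tissue, Ctsc and Lamp2, and 6 were below 0 in each, Ctsz, Tpp1, Gaa, Gla, Gusb and Mcoln1. Over all genes, 57.1% were below 0 in liver, 63.5% in macrophages and 51.5% in aorta. The share on the same side in every tissue was not computed, so these counts are a listing only. In aorta Tpp1 was 0.006 after quantile normalization, and Gaa was 0.032 as the mean of its probe sets. Ctsc was at 0.16 in liver, 0.18 in macrophages and 0.45 in aorta. In liver that rested on knockout replicate 1 and in macrophages on knockout replicate 2. Gusb was at -0.44 in liver, -0.25 in macrophages and -0.22 in aorta, where its dim second probe set gave 0.18.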

How the data were processed

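Expression was measured on 12 Affymetrix arrays, Mouse Gene 1.0 ST for macrophages and liver and Mouse Genome 430A 2.0 for aorta, per the series' design text. Per the submitters' processing notes the authors ran Affymetrix Expression Console. Neither its version nor the algorithm or normalization is given in the sources. By their ranges, the deposited values are log2 summaries of probe sets for macrophages and liver, and those deposited for aorta are linear intensity. Array medians were 6.57 to 6.77 log2 units in macrophages and 5.88 to 5.93 in liver; the number of arrays limits the precision, and no depth applies. The labels call arrays biological replicates, and p-values reflect only the spread among arrays, which may be technical.

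Probe sets with 1 gene symbol in the platform annotation were used (21789 of 35557, with 1621 holding several and 12147 not listed; 20393 of 22690, with 691 and 1606, on the aorta array), and a gene was represented by the probe set with the highest mean. A gene entered a fit if its mean reached the 30th percentile over probe sets (5.74 log2 units in macrophages, 4.87 in liver), and the aorta comparison if its brighter array reached the median signal of 32.6. Macrophages (6 arrays), liver (4 arrays), the control contrast and the interaction (10 arrays each, the control contrast on values minus the array median) were fitted without covariates with lmFit and eBayes of limma 3.58.1 in R 4.3.3, Benjamini-Hochberg adjustment over all genes tested. The aorta has no test and used a pseudocount of 16. The fits were tested on simulated data.

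The members and lists were chosen with earlier results of these data known. Values on every array are given for members at an unadjusted p under 0.05 in macrophages or liver, for up to 6 per tissue that lay furthest from 0 on either side, and for members whose probe sets disagree in direction by over 0.3. Exceptions, without array values, are Lamp2 in macrophages and liver, and Ctsz, Gla, Gaa, Ppt1, Atp6ap1, Lipa and Neu1 in aorta. Of each pathway list up to 4 genes with the smallest p are named. Outside that rule, and with values already seen, arrays are also given for Gla and Lipa in liver, Lgmn in macrophages, the markers Cd68 and Lyz2, and Ctsk, Ctse, Gla and Atp6v0d2 between control tissues. Alternatives were quantile normalization, other filters, the mean of probe sets, a trended prior, a replicate block, the tied sets as a block, all arrays in 1 fit, the control arrays alone, uncentred values, other pseudocounts and leaving out each array. Promoter windows and their coordinates are from RefSeq (GRCm38.p6).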

Additional observations from a re-analysis of the deposited data

How the results depend on the processing

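The counts over all genes moved most. In liver 1 gene was called, 0 with quantile normalization, no filter, a trended prior or all 10 arrays in 1 fit, 23 with the replicate block, and between 0 and 36 when 1 array was left out, the highest without knockout replicate 2. Deviations of same-numbered macrophage arrays, which share an age, correlated at 0.40, 0.03 and 0.50 for replicates 1, 2 and 3. The arrays of replicate 1 and of replicate 3 each lie within 1 tied set, and those of replicate 2 do not. Age and tied set cannot be told apart here. Within a tied set but at different ages, knockout replicate 1 and control replicate 2 gave 0.19, and knockout replicate 2 and control replicate 3 gave 0.07. The 2 liver pairs gave 0.11, the same value by construction with 2 arrays per genotype. The numbers were not taken as pairs in the main fits. In macrophages the replicate block called 0 genes. In liver it put 9 of the 32 genes lower at an unadjusted p under 0.05 (limma), against 6 without it. The median of the 32 genes in control macrophages minus control liver was 1.40, 1.73 with quantile normalization and 2.19 on the values as deposited. The median of macrophage difference minus liver difference was 0.03 and ran from -0.026 without knockout liver replicate 1 to 0.157 without knockout macrophage replicate 2, turning also without knockout macrophage replicate 1 (-0.006), with 0 to 1 genes called. In the aorta 90 genes passed 2-fold, 169 with a pseudocount of 1 and 37 with a pseudocount of 64. The causes were not tested.

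Directions turned for several genes with differences near 0, and in macrophages also for Ctsk and Atp6v0d2, the genes furthest from the controls. In macrophages Scarb2 was -0.045 with the tied sets as a block. With 1 array left out, the macrophage differences ran from -0.108 to 0.068 for Scarb2, -0.019 to 0.055 for Lamp2, -0.029 to 0.021 for Ctsd, -0.050 to 0.027 for Ctsb, -0.216 to 0.028 for Ctsl, -0.042 to 0.30 for Ctsc, -1.17 to 0.074 for Ctsk and -0.846 to 0.064 for Atp6v0d2. In liver they ran from -0.120 to 0.434 for Ctsk, -0.047 to 0.358 for Ctsc, -0.034 to 0.120 for Lamp2, -0.188 to 0.072 for Scarb2 and -0.00825 to 0.130 for Ctsl. Between control tissues, Lamp2 was 0.14 with quantile normalization and 0.58 as deposited, and Scarb2 0.034 and 0.76; with 1 array left out Scarb2 ran from -0.1055 to 0.055, and was 0.019 without control liver replicate 1. In the aorta Gaa was 0.032 as the mean of its probe sets. Of 1054 values of single genes under the alternatives, 1017 kept their direction and side of the threshold. The contrast of control tissues supplied 531 of these. In it, another filter, averaged probe sets, a trended prior or a left-out knockout array could not change a difference. The count is therefore no measure of how stable the knockout differences are. Groups of 2 or 3 arrays limit what could be detected.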

Other observations

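In the aorta pools the rest of the lysosomal pathway showed no common direction. Of 22 other acid hydrolases past the signal limit, 12 were higher and 10 lower in the Prkch-/-Apoe-/- pool (median 0.01 of log2(signal + 16)). V-ATPase subunits gave 6 higher and 7 lower of 13 (median -0.02), and membrane and transport genes 3 higher and 6 lower of 9 (median -0.04). Of the genes of enzyme sorting with the MiT/TFE factors, 4 of 6 were higher, and 3 after quantile normalization. None of these genes differed 2-fold or more.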
